A study of Mus musculus with 10 samples.

Results

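Cluster 14 of the colonic crypt cells is a group of 78 epithelial cells, 77 of them from normal mice and 1 from mice given dextran sulfate sodium (DSS). Its members are all cells that the authors' annotation places in that cluster, out of 3065 kept colonic cells and 25204 kept cells in the series. They made up 6.80% of the 1132 kept cells of the normal library (95% exact binomial interval 5.41% to 8.43%) and 0.0517% of the 1933 kept cells of the DSS library (interval 0.00131% to 0.288%). The annotation names only cluster 2 of the colon, as stem cells, and gives this one a number. The cells carried the posterior regional gene Hoxb13, almost no Lgr5, Smoc2 or Ascl2, and low levels of mature colonocyte genes. The nearest cells after DSS were split between cluster 4 and cluster 10.

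The colonic epithelium renews from stem cells at the crypt base. Their daughters divide for a while in the lower crypt, then mature on the way up into absorptive colonocytes, which take up salt and water, or into goblet and other secretory cells. Crypts of the proximal and the distal colon keep different sets of homeobox genes, and DSS, a chemical given in the drinking water, injures this lining.

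Both libraries are 10x Genomics 3′ libraries of colonic crypts, 1 from normal mice and 1 from DSS treated mice. The labels give neither strain, age, number of mice nor day of sampling, and the methods name C57BL/6 mice and, for the colitis model, young adult females given DSS for some days. The remaining libraries of the series are organoid cultures and were not used. With 1 library per condition there was no replicate check and no test was made. Intervals cover counting error only, and a cluster held almost wholly by 1 library may reflect that library as much as a cell type. Values are counts of unique molecular identifiers (UMIs, 1 per captured transcript), summed over the cells of a cluster and scaled to the usual CPM, which sets every cluster to the same total.

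The libraries differed in transcripts of the sex chromosomes. Xist, the RNA that silences an X chromosome in female cells, was found in 978 of the 1132 normal cells and in 3 of the 1933 DSS cells. The 4 Y-linked genes Ddx3y, Eif2s3y, Kdm5d and Uty gave 0 UMIs in the normal library and at least 1 UMI in 1360 DSS cells (70.4%). The methods name female mice for the colitis model. Sex and DSS treatment therefore cannot be told apart in any comparison of the libraries. The single DSS cell of cluster 14 had 1 UMI of these Y-linked genes and 0 of Xist. Of all cell barcodes, 42 occurred in both libraries, 2 of them kept in both, and 3 of the 77 normal barcodes of cluster 14 occurred in the DSS library, 0 of them among its kept cells. An inducible heat shock gene also differed between the libraries. Within the 5 epithelial clusters that hold at least 20 cells of both (1, 2, 5, 6 and 13), Hspa1b had a log2 ratio of normal over DSS between 3.35 and 4.04. Between normal cluster 14 and DSS cluster 4 the same log2 ratio was 2.56. The list of 17 immediate early and heat shock genes as a whole did not share this difference, with a median log2 ratio of -0.03 in the shared clusters and of -0.13 against DSS cluster 4.

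The 77 normal cells had a median of 24749 UMIs (1053 to 58946) and 4707 genes, against a median of 17214 UMIs in the other normal cells. This depth was not particular to the cluster. Normal clusters 1, 3, 6 and 13 had medians of 25358, 22335, 23255 and 34273 UMIs. Cluster 12 had 5847 UMIs and the normal leukocytes 3517 UMIs. The mitochondrial share of the 77 cells had a median of 9.32%. Together they held 1798440 UMIs, so that 0 UMIs of a gene allowed a level of up to 1.67 CPM (3 counts).

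These cells were epithelial. All 8 epithelial markers were detected, and Epcam, an epithelial adhesion protein, stood at 2077 CPM (2011 to 2144) in the cluster and at 2074 CPM (2053 to 2095) in the other normal cells. Krt8, a keratin of simple epithelia, was found in 100% of the cells. The lists for other lineages were near 0. The 5 general leukocyte markers summed to 1.11 CPM, against 3918 CPM in the normal leukocyte clusters, and the 13 T and NK cell markers summed to 7.23 CPM. B cell, mast cell, fibroblast and smooth muscle lists had 0 UMIs, the 14 enteroendocrine markers summed to 3.34 CPM, and the 15 tuft cell markers to 5.56 CPM. The defining markers Ptprc (1.11 CPM), Chga and Dclk1 (0.556 CPM each) and Trpm5 and Col1a1 (0 CPM each) belong to these lists. Among all marker lists, the median log2 ratio against the other normal cells was highest for the M cell list, at 0.54 over only 2 genes that reached 10 CPM. Of that list, Tnfrsf11a (91.7 CPM), Anxa5 (58.9 CPM), Ccl20 (5.56 CPM) and Spib (0.556 CPM) were detected, and Gp2, the M cell receptor for bacterial fimbriae, had 0 UMIs. No marker list had a gene at least 2-fold above the other normal cells. The cluster therefore received no cell type name and is described by its traits. The other normal cells include clusters 3 and 12, which are high in mature colonocyte genes. This rule could thus hardly name less mature absorptive cells.

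Its place along the crypt can be described by 3 lists. The most specific stem cell markers were almost missing, while other genes of the list were present. Lgr5, the receptor that marks crypt base stem cells, and Smoc2, a secreted matrix protein of the same cells, had 0 UMIs, and Ascl2, a transcription factor of stem cells, had 1 UMI (0.556 CPM). In normal stem cluster 2 these genes stood at 20.3, 39.4 and 56.1 CPM. One of the 77 cells held a UMI of any of the 3 genes (1.30%, interval 0.0329% to 7.02%), against 51 of 102 cells of cluster 2 (50.0%) and 2 of 219 normal leukocytes (0.913%), whose median depth was 3517 UMIs. After thinning each cell to 5000 UMIs the shares were 0 of 63 cells of cluster 14, 29 of 91 cells of cluster 2 (31.9%) and 1 of 24 leukocytes. The 11 markers summed to 228 CPM, against 308 CPM in the other normal cells and 1025 CPM in cluster 2. Of them, 7 reached 10 CPM, of which 0 were at least 2-fold higher and 1 was at least 2-fold lower than in the other normal cells, with a median of -0.41. The lower one was Cd44, a hyaluronan receptor, at 5.56 CPM against 25.5 CPM. The guidance receptor Ephb2 stood at 37.3 CPM (28.9 to 47.3) against 24.0 CPM in the other normal cells and 52.4 CPM in cluster 2, and the transcription factor Sox9 at 61.7 CPM against 69.0 and 167 CPM.

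Division genes were below the level of the cycling cells. Mki67, a protein of dividing nuclei, reached 10.6 CPM (6.36 to 16.5) in the cluster and 19.2 CPM in the other normal cells. It was found in 19.5% of the cells of the cluster. Hmgb2 and Tubb5, also among the 10 cycling markers, were found in 83.1% and 67.5%. A count of at least 3 markers therefore does not by itself mark a dividing cell. Of 77 cells, 25 (32.5%) held at least 3 of 10 cycling markers, against 36 of 36 cells of cluster 13 (100%), 62 of 102 of cluster 2 (60.8%), 23 of 274 of cluster 3 (8.39%) and 14 of 219 leukocytes (6.39%). Thinned to 5000 UMIs, 3 of 63 cells (4.76%), 32 of 34 (94.1%), 20 of 91 (21.98%), 1 of 242 (0.413%) and 4 of 24 (16.7%) did so. Ccnd2, a D-type cyclin, was at its highest among the 11 normal clusters of at least 20 cells, at 354 CPM (327 to 383), level with 352 CPM in stem cluster 2.

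Mature absorptive genes were mostly low. Of 21 colonocyte markers, all were detected, 13 were at least 2-fold lower than in the other normal cells and 0 were at least 2-fold higher, with a median log2 ratio of -2.10. Over all 7985 genes of at least 10 CPM, 505 (6.32%) were at least 2-fold lower, 96 (1.2%) were at least 2-fold higher, and the median log2 ratio was 0.08. This split depended on the scaling, with 919 lower and 537 higher genes when cells were thinned to 5000 UMIs, and 1099 and 441 with the mean of per-cell CPM. Krt20, a keratin of the crypt surface, stood at 25.02 CPM (18.3 to 33.5), against 14.9 CPM in normal leukocytes, 1269 CPM in normal cluster 3 and 2944 CPM in normal cluster 12. Car1, a carbonic anhydrase of mature colonocytes, stood at 628 CPM (592 to 665) against 6593 CPM in the other normal cells. Other absorptive genes were well expressed. Lypd8, a secreted protein that keeps bacteria away from the epithelium, was in every cell at 5872 CPM. Fabp2, which binds fatty acids, was in every cell at 1288 CPM. Car2, another carbonic anhydrase, was at its highest of the 11 clusters at 1666 CPM (1607 to 1727). The 21 markers summed to 13393 CPM, rank 5 of the 11 normal clusters. Lypd8, Fabp2, Car1 and Krt20 stood at 1560, 791, 541 and 17.9 CPM in stem cluster 2. In normal cluster 3 they stood at 20107, 2365, 6259 and 1269 CPM. Their values in cluster 14 lay between, while Car2 was above both (1089 and 1244 CPM).

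Most goblet cell transcripts were scarce, some at a CPM close to that of leukocytes. Of 13 goblet cell genes, 12 were at least 2-fold lower than in the other normal cells, whose level is carried by the goblet clusters. The list summed to 1541 CPM in cluster 14, the fourth highest of the 11 normal clusters, and to 143513 CPM in cluster 19. Spink4, a protease inhibitor of goblet cells, had 36.1 CPM (27.9 to 46.1) in the cluster and 34.7 CPM in leukocytes, which should lack it. Reg4, a lectin of deep crypt secretory cells, had 3.89 CPM in the cluster and 3.72 CPM in leukocytes. The leukocytes had a median depth of 3517 UMIs, against 24749 UMIs in cluster 14. An equal CPM thus stands for more UMIs per cell in cluster 14. Muc2, the main gel-forming mucin, had 165 CPM (147 to 185) against 53.3 CPM in leukocytes. This sum was uneven between cells, with a median of 0 UMIs and a maximum of 265 at the median depth of the cluster. It is therefore not the level of a typical cell of the cluster.

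**Figure D1:**
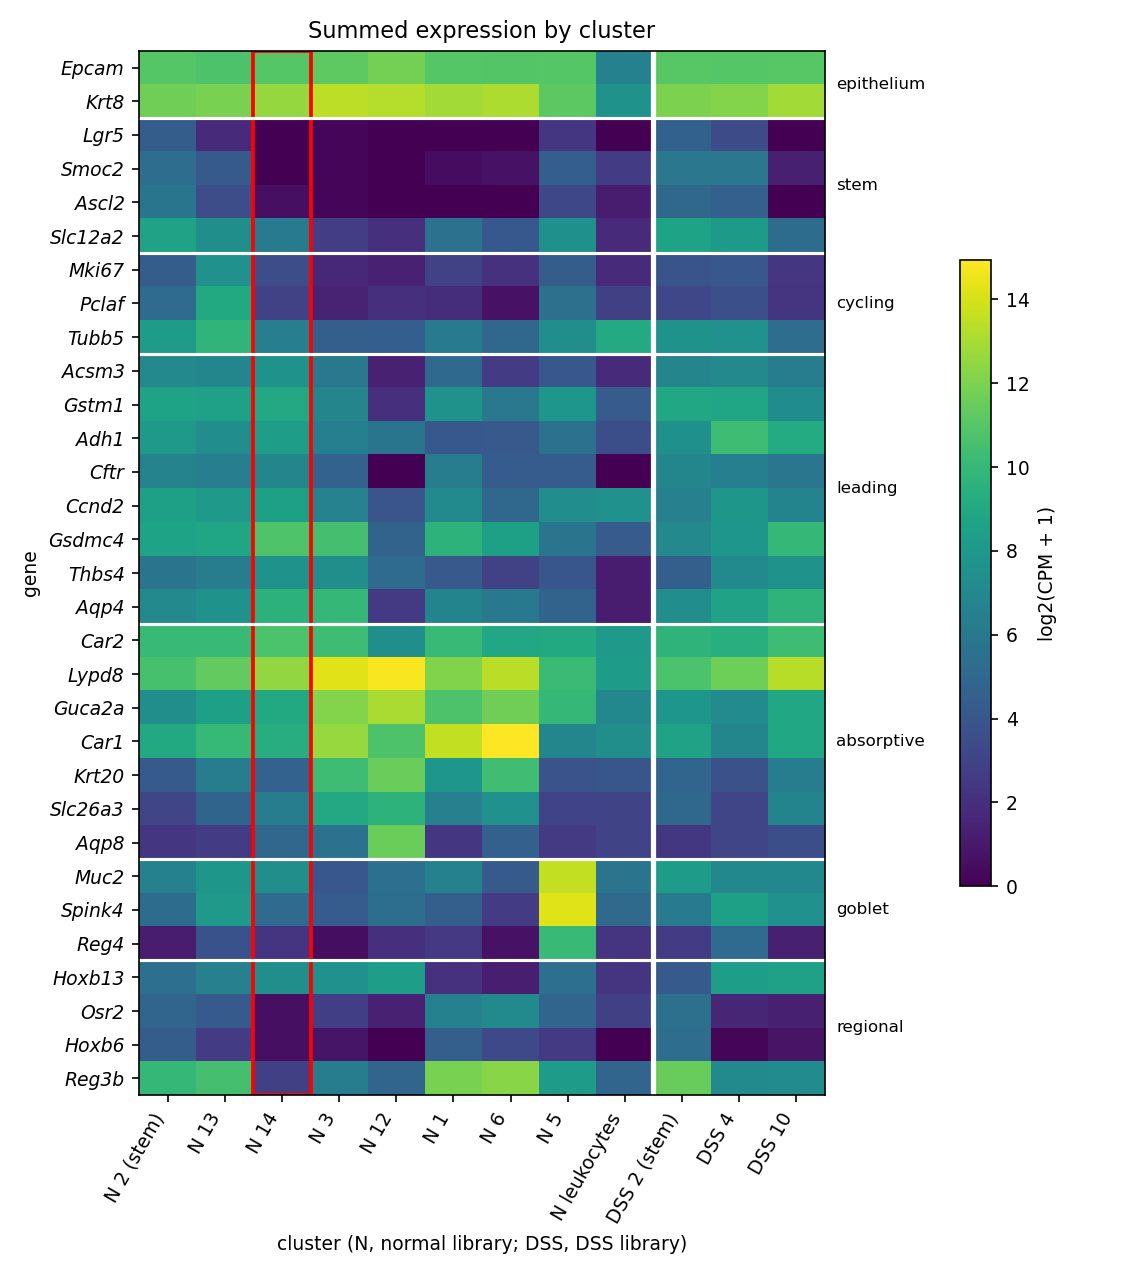
Summed expression as log2(CPM + 1) for selected genes (rows) in clusters of the normal library (N) and the DSS library, with normal cluster 14 outlined in red. The outlined column is dark for Lgr5, Smoc2 and Ascl2 and for Osr2, Hoxb6 and Reg3b, and bright for Gsdmc4, Aqp4 and Car2.

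Among genes of at least 100 CPM in cluster 14 or in the other normal cells, the 20 with the highest ratio are described next. They were picked for that ratio and carry no test. Many were shared with stem cluster 2, the most similar normal cluster. There 3 of the 20 were higher than in cluster 14 (Kcne3 at 469, Rangrf at 157 and Gdf15 at 213 CPM). Ccnd2 was level at 352 CPM, and others were close, such as Gstm1 at 406 and Cftr at 101 CPM. At the head was Acsm3, a mitochondrial acyl-CoA synthetase, at 199 CPM (178 to 220) against 55.9 CPM (3.55-fold). The glycosyltransferase gene B3gnt7 followed at 145 against 50.4 CPM, then Gstm1, a glutathione transferase, at 510 against 187 CPM. The alcohol dehydrogenase gene Adh1 stood at 316 against 117 CPM.

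Some transport genes were among these 20, although of the 14 ion and water transport genes tested only 2 were at least 2-fold higher and 6 at least 2-fold lower than in the other normal cells, with a median of -0.52. Cftr, the chloride channel of secreting crypt cells, was at 108 CPM (93.7 to 125) against 43.0 CPM and in 77.9% of the cells. Kcne3, a potassium channel subunit that acts in chloride secretion, was at 300.3 against 141 CPM, and Slc5a8, a transporter of short-chain fatty acids, at 309 against 148 CPM. Aqp4, a water channel, was the second highest of the 11 clusters at 766 CPM. Gsdmc4, a member of the gasdermin C family, was highest of all 11 at 1805 CPM (1744 to 1869) against 760 CPM, though its near-identical neighbours on chromosome 15 (Gsdmc4 at chr15:63891264-63912297 on the minus strand, GRCm38) may share reads with it. Others of the 20 were Gstm2, Akr1b3, Thbs4, Ccnd2, Wfdc2, Rangrf, Cela1, Scd2, Gdf15, Edn2 and Mvd, with ratios between 2.06-fold and 2.48-fold.

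The cholesterol synthesis list summed to 2536 CPM in cluster 14, the highest of the 11 normal clusters, and 6 of its 13 members peaked in it, as did 6.32% of all 7985 genes tested. Only Mvd was at least 2-fold above the other normal cells, and the median log2 ratio was 0.40. Fdps, which makes farnesyl diphosphate, had 448 CPM (417 to 480) against 251 CPM.

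The 10 lowest ratios with the same minimum were mostly those of other lineages. They were Ccl5, Rgs1 and Cd7 of lymphocytes, Pyy, Chga and Chgb of enteroendocrine cells, Mcpt1 of mast cells, and Spink4 and Reg4 of secretory cells. The exception was Reg3b, an antimicrobial lectin, which epithelial cells make. It stood at 6.12 CPM (3.05 to 10.9) in cluster 14 and between 1003 and 4929 CPM in normal clusters 1, 2, 6 and 13. In normal clusters 3 and 12 it was also low, at 80.4 and 28.8 CPM.

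Regional genes set these cells in the posterior group of the library. Hoxb13, a homeobox gene of the distal hindgut (chr11:96194316-96197447, plus strand, GRCm38), stood at 166 CPM (148 to 186). Osr2 (chr15:35296098-35303305, plus strand), Hoxb6 and Hoxb7, which marked other colonic clusters, had 1, 1 and 0 UMIs. Of the 77 cells, 52 held a Hoxb13 UMI (67.5%), 1 held a UMI of Osr2, Hoxb6 or Hoxb7 (1.30%) and 0 held both. In normal clusters 1 and 6, Hoxb13 was at 3.30 and 1.35 CPM and Osr2 at 94.0 and 134 CPM. Normal clusters 3 and 12 shared the pattern of cluster 14, with Hoxb13 at 187 and 330.0 CPM, Osr2 at 5.80 CPM in cluster 3 and 1 Osr2 UMI in cluster 12. So did normal cluster 19, with Hoxb13 at 100 CPM, found in 72.2% of its cells, and 1 Osr2 UMI. Stem cluster 2 and cycling cluster 13 held cells of both kinds.

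Colonic clusters 1 and 6, with Osr2, were shared by both libraries. Cluster 17, also with Osr2 (271 CPM), held 57 DSS cells and 0 normal cells. Among the Hoxb13 clusters, normal clusters 3, 12 and 14 had 1 DSS cell each and normal cluster 19 had 2. DSS clusters 4, 7 and 10 had 11, 8 and 6 normal cells. In DSS cluster 4, Hoxb13 was at 313 CPM and Osr2 at 2.00 CPM, and in DSS cluster 10 at 377 and 1.47 CPM. The number of cells with Hoxb13 and without the 3 other genes was 426 of 913 normal cells outside the leukocyte clusters (46.7%) and 580 of 1488 DSS cells (39.0%). Cells of the Hoxb13 kind were therefore sampled in both libraries. Some shared a cluster number, as in cluster 5, where 25.3% of normal and 60% of DSS cells held a Hoxb13 UMI, and cluster 13 (36.1% and 44.4%).

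**Figure D2:**
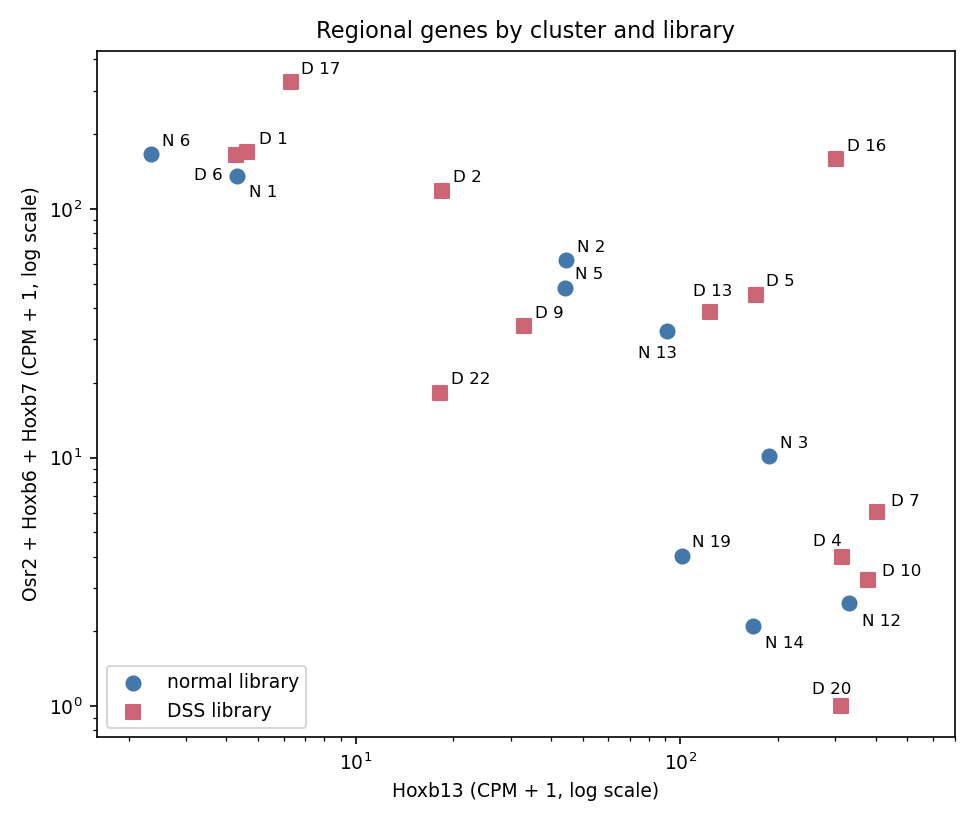
Hoxb13 (x axis) and the sum of Osr2, Hoxb6 and Hoxb7 (y axis) in CPM + 1 on log scales for each non-leukocyte cluster of at least 20 cells, with normal clusters as circles (N) and DSS clusters as squares (D). Normal cluster 14 lies at the lower right near normal clusters 12 and 19 and DSS clusters 4, 10 and 20.

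By the ratio of variance to mean of depth-scaled UMIs among genes of at least 100 CPM, the first was Muc2, with a median of 0 UMIs and a maximum of 265 at the median depth of the cluster. Car1 ranged from 0 to 236 with a median of 3.63, and Lypd8 from 14.4 to 387 with a median of 124. Malat1, a nuclear RNA, Sycn, Mptx1, Ifi27l2a and Sprr1a were also among the 8 most variable. Scrublet, a doublet caller, marked 1 of the 77 cells, and 7 of them had a score in the top 5%. It marked only 0.359% of all kept colonic cells, too few for a working call.

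The counterpart after DSS was sought first by whole profiles. Each cluster profile was the log2 CPM difference from all other kept cells of its own library, over 2975 genes of at least 50 CPM in either library. Genes are not independent replicates, and the correlations are descriptions. Among the DSS clusters, cluster 4 (230 cells) was the most like normal cluster 14, with a Pearson r of 0.756. Stem cluster 2 followed at 0.706, cluster 10 at 0.670 and cycling cluster 13 at 0.637. By Spearman's rho, cluster 4 (0.696) was followed by cluster 13 (0.581) and cluster 2 (0.557), and cluster 10 was far behind at 0.316. Within the normal library the nearest was stem cluster 2, at 0.785. Of the 7 clusters that held at least 20 cells of both libraries, 6 matched their own number best, with r between 0.784 and 0.921 where the number was the same. Cells that share a number were grouped by their likeness, so these matches were favoured in advance. They give no scale for cluster 14.

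The first place depended on the centring. Without subtracting the rest of the library, DSS cluster 10 came first (0.893), with cluster 2 at 0.886 and cluster 4 at 0.885. In 6 further settings, given at the end, cluster 4 stayed first, with a coefficient between 0.696 and 0.767.

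**Figure D3:**
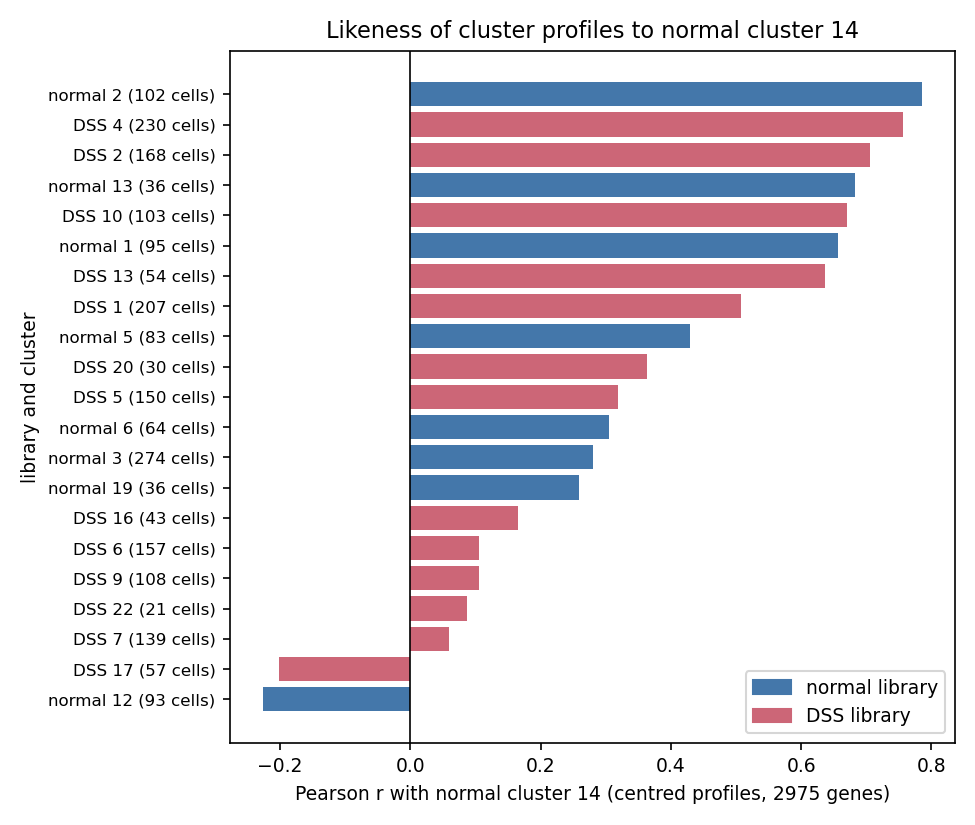
Pearson r between the centred profile of normal cluster 14 and that of every other non-leukocyte cluster of at least 20 cells, in blue for the normal and red for the DSS library. DSS cluster 4 is the highest DSS bar, at 0.756, below normal stem cluster 2 at 0.785.

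Single cells gave a split answer. This step compared cell counts with cluster means that were not centred, unlike the main profiles above, so the measure changed as well. When each of the 77 cells was sent to the DSS cluster with the highest Spearman correlation, 39 went to cluster 4 (50.6%, interval 39.0% to 62.2%), 21 to cluster 10 (27.3%, 17.7% to 38.6%), 10 to stem cluster 2 (12.99%) and 5 to cluster 1. In the other direction, 116 of the 230 cells of DSS cluster 4 went to normal cluster 14 (50.4%, 43.8% to 57.1%) and 107 to normal stem cluster 2 (46.5%, 39.9% to 53.2%). Of DSS cluster 10, 77 of 103 cells went to normal cluster 14 (74.8%, 65.2% to 82.8%) and 24 to normal cluster 3. Of DSS cluster 20, whose median depth was only 4006 UMIs, 23 of 30 did. DSS cluster 4 thus held cells near 2 normal clusters, and cluster 10 lay between normal clusters 14 and 3.

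The stem markers were also unevenly held. Whether the cells with these markers were those sent to normal stem cluster 2 was not tested. In DSS cluster 4, 109 of 230 cells held a UMI of Lgr5, Smoc2 or Ascl2 (47.4%, 40.8% to 54.1%), and in DSS cluster 10, 4 of 103 did (3.88%, 1.07% to 9.65%), close to the 1.30% of normal cluster 14. Thinned to 5000 UMIs the shares were 27.3% of 194 cells, 1.08% of 93 cells and 0 of 63 cells. Regional genes bore on the stem cells as well. Of the 102 cells of normal stem cluster 2, 27 held Hoxb13 without Osr2, Hoxb6 or Hoxb7, and of these 12 went to DSS cluster 4, 0 to DSS stem cluster 2 and 15 to cycling cluster 13. The 44 cells with at least 1 of the 3 other genes and without Hoxb13 sent 0 to DSS cluster 4 and 32 to DSS stem cluster 2. The 1 DSS cell of cluster 14, with 21719 UMIs, was nearest to cluster 14 among normal clusters and to stem cluster 2 among DSS clusters.

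**Figure D4:**
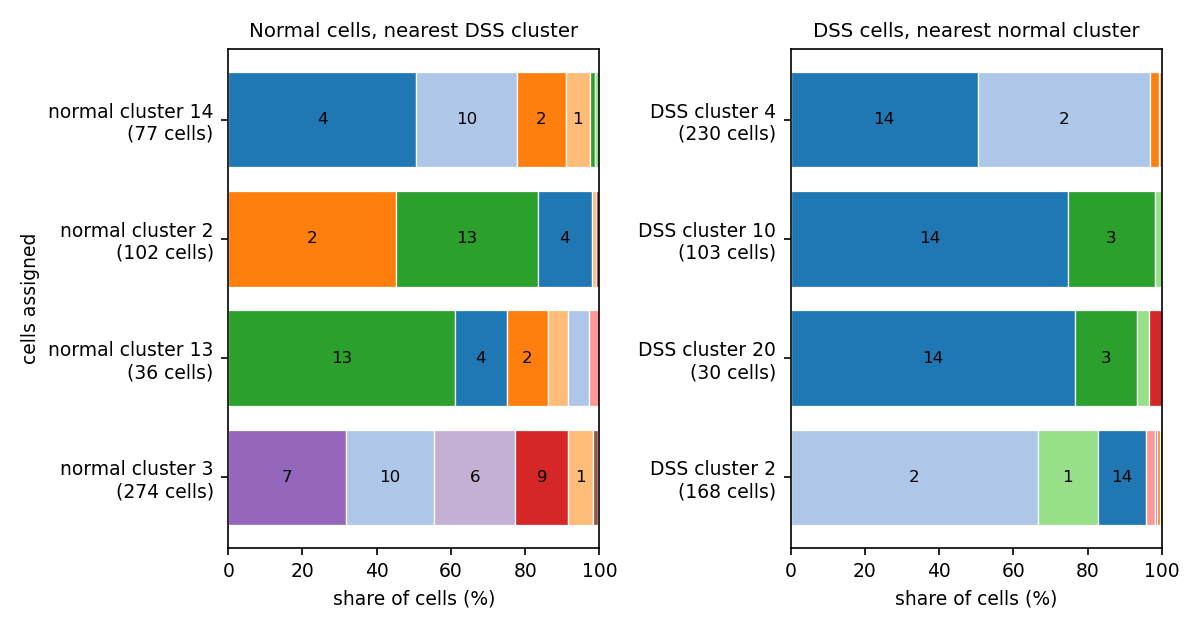
Share of cells (x axis, %) of each cluster (rows) whose nearest cluster in the other library is the one numbered on the bar, for normal cells on the left and DSS cells on the right. Colours are set within each panel. Normal cluster 14 goes mainly to DSS clusters 4 and 10, and 50.4% of DSS cluster 4 and most of DSS clusters 10 and 20 go to normal cluster 14.

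Normal cluster 14 was then set against DSS cluster 4. Of 7992 genes of at least 10 CPM in either, 303 (3.79%) were at least 2-fold higher in normal cluster 14 and 380 (4.75%) at least 2-fold lower, with a median log2 ratio of -0.01. Within the 5 shared epithelial clusters the normal library was at least 2-fold above the DSS library for 1.84% to 4.45% of genes. It was at least 2-fold below it for 1.66% to 5.06%. These comparisons draw on the same 2 libraries, so their values are given side by side. Clusters 1 and 6 were of the Osr2 kind, and clusters 2, 5 and 13 held cells of both kinds. The mix differed between libraries, with Hoxb13 in 29.4% of normal and 10.7% of DSS cells of cluster 2. None held Hoxb13 cells alone, so the shared clusters do not give the library difference of such cells.

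Among genes of at least 100 CPM in either cluster, the 3 highest ratios after Xist were those of the interferon-response genes Ifi27l2a, Isg15 and Oasl2, with Bst2 and Irf7 lower among the first 10. Ifi27l2a (chr12:103442167-103443680, minus strand), an interferon-inducible membrane protein, stood at 462 CPM (431 to 495) in normal cluster 14 and 7.80 CPM (5.55 to 10.7) in DSS cluster 4. Isg15, a ubiquitin-like modifier, stood at 166 CPM (147 to 186) and 3.40 CPM (1.98 to 5.45). Oasl2, an antiviral synthetase-like protein, stood at 118 and 3.20 CPM, the virus-tethering protein Bst2 at 344 and 34.6 CPM, and the transcription factor Irf7 at 166 and 17.6 CPM. The normal library was above the DSS library for them elsewhere too, with median log2 ratios over the 5 shared clusters of 2.58, 2.52, 1.36, 1.35 and 1.17, against 5.72, 5.24, 4.82, 3.28 and 3.16 here. The highest ratios within a shared cluster were 5.19, 3.48, 3.81, 2.00 and 2.36, so that of Ifi27l2a came near its value here. Of the interferon and MHC class I list, 12 genes reached 10 CPM, of which 6 were at least 2-fold higher and 0 lower, with a median of 0.86. Of these 12, 4 reached 10 CPM only in normal cluster 14, and among the 8 that did so in both clusters 2 were higher and 0 lower, with a median of 0.53. Within the normal library these transcripts were not particular to the cluster. Isg15 stood at 36.6 CPM in stem cluster 2, 872 CPM in cluster 3 and 3242 CPM in cluster 12, and 7 of the 16 tested genes of the list were at least 2-fold lower in cluster 14 than in the other normal cells. Against DSS cluster 10 the log2 ratio of Ifi27l2a was 7.55 and that of Isg15 5.40.

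Because these genes moved together, the promoters of 2 of them are shown, from 250 bases before to 50 bases after the start, as RefSeq gives them on GRCm38.p6. Capitals mark GAAANNGAA, a short form of the element bound by interferon regulatory factors, searched on both strands, where neighbouring matches overlap. The first lies at chr4:156200769-156201068 and the second at chr8:71537423-71537722, both on the minus strand.
Isg15: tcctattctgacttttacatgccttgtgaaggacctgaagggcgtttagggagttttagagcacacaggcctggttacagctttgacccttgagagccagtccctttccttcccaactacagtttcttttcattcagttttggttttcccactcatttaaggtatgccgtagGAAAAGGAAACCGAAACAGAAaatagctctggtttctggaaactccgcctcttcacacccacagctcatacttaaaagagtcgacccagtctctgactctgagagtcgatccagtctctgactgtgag
Bst2: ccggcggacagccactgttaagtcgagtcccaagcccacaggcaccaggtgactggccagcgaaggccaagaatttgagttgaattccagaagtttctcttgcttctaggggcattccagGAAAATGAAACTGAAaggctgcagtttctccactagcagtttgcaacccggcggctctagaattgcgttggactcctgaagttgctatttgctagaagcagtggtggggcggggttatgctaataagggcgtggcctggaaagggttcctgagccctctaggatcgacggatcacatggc
The Isg15 promoter held 3 matches, starting 78, 72 and 66 bases before the start site, and that of Bst2 held 2, starting 130 and 124 bases before it. Of 27025 genes with a promoter sequence, 9.76% held at least 1 match, and of 14 genes of the interferon and MHC class I list with a promoter sequence, 7 did. The promoter windows of Oasl2 and Irf7 held none. A match is a description of the letters and not of binding.

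Absorptive genes were the second group above DSS cluster 4. Of the 17 colonocyte markers that reached 10 CPM, 12 were at least 2-fold higher in normal cluster 14 and 0 lower, with a median of 1.89. Among the 12 that reached it in both clusters, 7 were higher and 0 lower, with a median of 1.42. Fabp2 stood at 1288 against 93.0 CPM (13.8-fold) and was in 100% of normal cluster 14 and 60.4% of DSS cluster 4. Slc26a3, the chloride and bicarbonate exchanger of the colon, stood at 76.7 CPM (64.5 to 90.7) against 7.60 CPM (5.38 to 10.4). Car1 was 5.52-fold, Selenbp1 4.54-fold and Guca2a, the precursor of guanylin, 3.77-fold higher. In the shared clusters the median log2 ratio of the 17 markers was 0.38. That of Guca2a against DSS cluster 4, 1.91, lay within its range there, -0.48 to 2.03. Those of Fabp2, Slc26a3 and Car1, at 3.78, 3.18 and 2.46, lay above their highest values there, 2.36, 1.99 and 1.87. The choice of counterpart also mattered for the absorptive genes. In DSS cluster 10, Slc26a3 was at 107 CPM, Car1 at 504, Selenbp1 at 478 and Guca2a at 483 CPM, so that their log2 ratios lay between -0.48 and 0.32, while Fabp2 was still low at 193 CPM.

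Gasdermin C genes also differed. Gsdmc2, Gsdmc3 and Gsdmc4 stood at 751, 225 and 1805 CPM in normal cluster 14 and at 82.0, 35.4 and 227 CPM in DSS cluster 4. In DSS cluster 10 they were at 316, 109 and 983 CPM. Their log2 ratios of 3.18, 2.64 and 2.99 lay within the range of the 5 shared clusters, which reached 3.90, 3.01 and 3.31. Cdx2, the intestinal homeobox factor, was 3.65-fold higher in normal cluster 14 (242 against 66.4 CPM) and at 94.6 CPM in DSS cluster 10, while its median log2 ratio in the shared clusters was 0.11 and their range -0.39 to 0.57. Cdx1, its relative, was similar, at 376 and 424 CPM. Hsd3b3, of steroid metabolism, and Mettl7b, a methyltransferase, completed the 10 highest of at least 100 CPM, Xist included, at 8.51-fold and 8.34-fold. Their log2 ratios were only 0.77 and 1.02 against DSS cluster 10, and 0.02 and 0.43 against DSS cluster 2.

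Few genes of energy metabolism were at least 2-fold apart, though the list medians lay towards normal cluster 14. All 16 respiratory chain genes had a positive log2 ratio, with a median of 0.55 and none at least 2-fold, against a median of 0.17 for the same genes in the shared clusters. They summed to 17078 CPM in normal cluster 14, 11307 CPM in DSS cluster 4 and 16514 CPM in DSS cluster 10. Of 12 glycolysis and hypoxia genes, 0 were at least 2-fold apart, with a median of 0.21. Of 13 fat oxidation and ketogenesis genes tested, 2 were at least 2-fold higher and 0 lower, with a median of 0.70 against 0.25 in the shared clusters. Among the 12 that reached 10 CPM in both clusters, 1 was higher and 0 lower. The list of 15 summed to 2613 CPM in normal cluster 14, 1278 CPM in DSS cluster 4 and 1589 CPM in DSS cluster 10. Its member Pdk4, a kinase that holds back glucose oxidation, stood at 20.0 CPM against 1.40 CPM and reached 10 CPM only in normal cluster 14. Of 13 cholesterol synthesis genes, 4 were at least 2-fold higher and 0 lower, with a median of 0.91, and the median of the same genes in the shared clusters was 0.78.

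Inflammatory and antimicrobial genes were on the other side. Trf, the iron carrier transferrin, had 1 UMI in normal cluster 14 (0.556 CPM) and stood at 208 CPM (196 to 222) in DSS cluster 4, a log2 ratio whose exact interval ran from -13.86 to -6.07. Wfdc18, a secreted protein with a protease-inhibitor fold, stood at 3.89 CPM (1.56 to 8.02) and 551 CPM (531 to 572). Ttr, a carrier of thyroid hormone and retinol, stood at 4.45 and 250.1 CPM. The chemokines Cxcl2, which draws neutrophils, and Ccl20 stood at 2.78 and 5.56 CPM against 160.4 and 155 CPM. Nox1, an X-linked oxidase of the colonic epithelium, stood at 3.34 against 139 CPM, the surface protein gene Plet1 at 12.8 against 155 CPM, and Reg3b and Spink4 at 6.12 and 36.1 against 143 and 359 CPM. By the median over the 5 shared clusters, these genes were also lower in the normal library elsewhere. For Trf, Wfdc18, Ttr, Cxcl2 and Ccl20 this log2 ratio was -1.18, -2.86, -2.25, -2.79 and -1.82, against -7.07, -6.82, -5.53, -5.42 and -4.58 here. For Nox1, Plet1, Reg3b and Spink4 it was -1.06, -2.63, -1.73 and -0.91, against -5.01, -3.50, -4.34 and -3.27. The lowest ratio of Spink4 within a shared cluster, -3.21, came near its value here. Goblet genes did not all lie on this side. Of 11 tested, 6 were at least 2-fold lower and 3 at least 2-fold higher in normal cluster 14. These 3 were Clca1, a secreted goblet cell protein, at 75.1 against 4.60 CPM, Retnlb at 32.3 against 3.20 CPM and Fcgbp at 47.8 against 13.8 CPM. Clca1 and Retnlb reached 10 CPM only in normal cluster 14, and 2 other genes only in DSS cluster 4. Among the 7 that reached it in both, 1 was higher and 4 lower, with a median of -1.02. In the shared clusters the median log2 ratio of the 11 genes was 0.48.

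Of the antimicrobial and acute-phase list, 10 genes reached 10 CPM, 8 were at least 2-fold lower in normal cluster 14 and 0 higher, with a median of -3.17 against -1.70 in the shared clusters. Only 5 of them reached 10 CPM in both clusters, of which 3 were lower and 0 higher, with a median of -1.92. Nos2, the inducible nitric oxide synthase, had 1 UMI against 53.0 CPM (46.8 to 59.8). Duox2 and Duoxa2, which make hydrogen peroxide at the cell surface, stood at 14.5 and 26.1 against 137 and 155 CPM. Lcn2, an iron-trapping protein, had 0 UMIs against 19.2 CPM, which makes it at least 11.5-fold higher in DSS cluster 4 (floor of 3 counts over the cluster). Several of these genes were also high in DSS cluster 10, with Wfdc18 at 401, Ccl20 at 175, Plet1 at 191, Reg3b at 146 and Duox2 at 118 CPM. Trf, Ttr, Nox1 and Lcn2 were lower there, at 23.9, 18.0, 14.3 and 2.94 CPM.

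MHC class II genes summed to 11.1 CPM in normal cluster 14 and 399 CPM in DSS cluster 4, and none of the 7 reached 10 CPM in the former. Cd74, the invariant chain, stood at 3.89 CPM (1.56 to 8.02) against 278 CPM (264 to 293). It was found in 33.0% of the cells of DSS cluster 4. Its log2 ratio was -5.83, and its median over the shared epithelial clusters was -1.87. The 5 general leukocyte markers summed to 10.4 CPM in DSS cluster 4 and 1.11 CPM in normal cluster 14, and the neutrophil list, led by S100a8 and S100a9, to 40.2 and 2.22 CPM. The part of leukocyte RNA in this difference was not tested.

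Stem cell genes were the last group. Of 9 stem markers that reached 10 CPM in either cluster, 6 were at least 2-fold lower in normal cluster 14 and 0 higher, with a median of -1.41. Among the 5 that reached it in both, 2 were lower and 0 higher, with a median of -0.95. Smoc2 was at 60.02 CPM (53.4 to 67.2) in DSS cluster 4 and at 0 UMIs in normal cluster 14, at least 36.0-fold apart at a floor of 3 counts, and at 1.47 CPM in DSS cluster 10. Slc12a2, the basolateral salt importer of secreting crypt cells, stood at 66.7 against 286 CPM, and at 38.3 CPM in DSS cluster 10, where the log2 ratio was 0.79. When DSS cells with a UMI of Lgr5, Smoc2 or Ascl2 were left out of cluster 4, a choice made after the data were seen, 288 genes were at least 2-fold higher and 308 lower. The wound-associated genes of the crypt differed in no common direction. Of 8 tested, 1 was at least 2-fold higher and 2 lower, with Ly6a (Sca1) at 865 against 228 CPM and the annexin gene Anxa1 at 297 against 322 CPM.

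**Figure D5:**
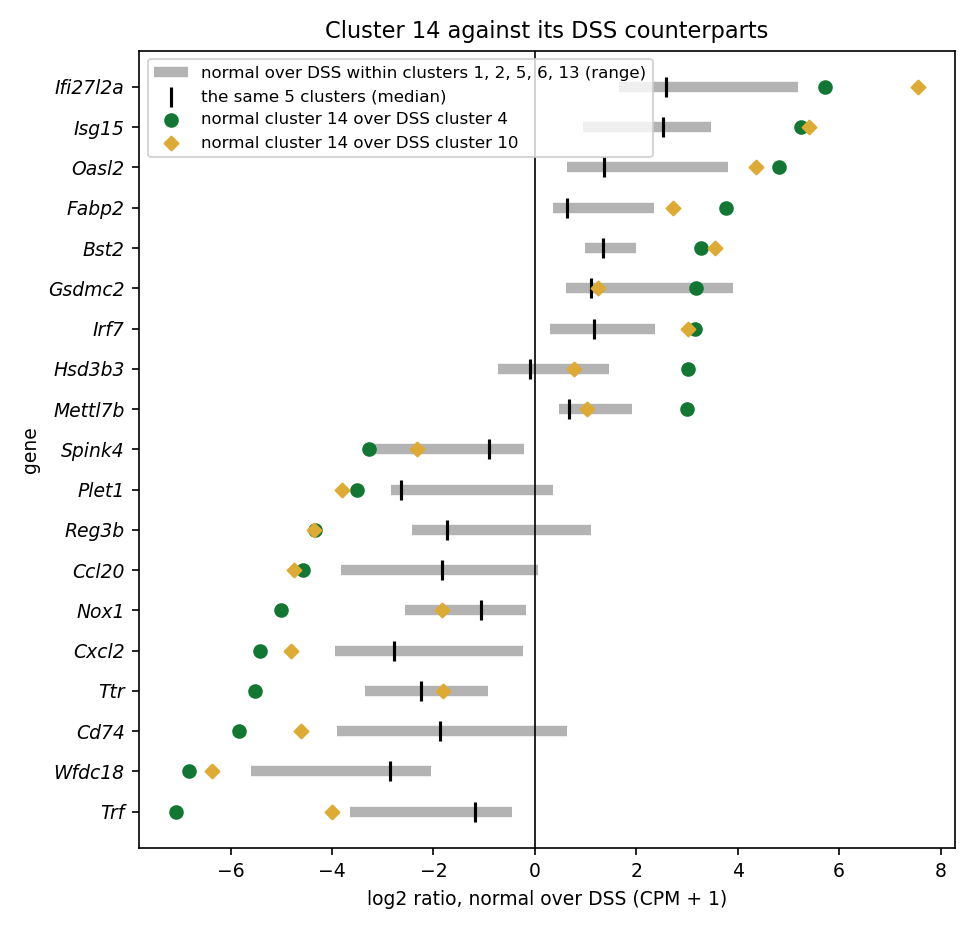
Log2 ratio of normal over DSS (x axis, CPM + 1) for the genes of at least 100 CPM in either cluster, the 9 with the highest ratio after Xist and the 10 genes with the lowest, of normal cluster 14 over DSS cluster 4 (green circles), with the ratio over DSS cluster 10 (yellow diamonds). Grey bars give the range and black ticks the median of the same library ratio within clusters 1, 2, 5, 6 and 13. The green circle of Gsdmc2 lies within its grey bar and that of Spink4 just outside, at -3.27, and the others lie farther out.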

How the data were processed

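Crypts from the colon of normal and of DSS treated mice were profiled in 1 droplet library each. Per the labels, reads were processed by the authors with Cell Ranger 3.0.0 and Seurat 3.1.4 on mm10. The deposited values are raw counts of UMIs per gene and cell (23810 genes), with the authors' cell filter and cluster numbers. The normal library held 3627 barcodes, of which 1132 were kept with 19906845 UMIs, and the DSS library 4746, of which 1933 were kept with 32397122 UMIs. The methods state a minimum of genes per cell that some kept cells do not reach, so the deposited cells were used as they stand. Doublets were scored with Scrublet (scanpy 1.11.5) and left in.

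Counts were summed per cluster and library and scaled to CPM with Python 3.11.15, numpy 2.4.6, scipy 1.17.1 and pandas 2.3.3. Ratios are log2(CPM + 1) differences, which understate changes of low genes, over genes of at least 10 CPM in either group. Intervals are 95% exact Poisson (CPM), exact binomial (Clopper-Pearson, shares) or conditional binomial (ratios). A level of 0 was bounded by 3 counts over the cluster. With 1 library per condition no test was run. Scripts were tested on simulated data. Named genes were, among those of at least 100 CPM in either group and without mitochondrial, ribosomal, immunoglobulin and unnamed genes, the 20 highest and 10 lowest ratios against the other normal cells, the 10 highest and 10 lowest against the counterpart, and members of the marker and function lists. Others were chosen after their values were seen. The cluster and the lists were chosen with earlier results of these data known. Gene positions are from GENCODE on GRCm38, and promoters from RefSeq on GRCm38.p6. Alternatives were another scaling, filter, pseudocount, thinning, doublet removal, cell filter and counterpart. Libraries of organoids were left out. Results on a few genes are not reported here.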

Additional observations from a re-analysis of the deposited data

How the results depend on the processing

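One library per condition means that no setting here speaks to variation between mice, and no paired analysis was possible because each condition has 1 library. Against the other normal cells, 96 higher and 505 lower became 537 and 919 after thinning to 5000 UMIs, 441 and 1099 with the mean of per-cell CPM, 29 and 319 with a pseudocount of 10 CPM, and 220 and 1436 with no minimum level. Median-ratio scaling gave 60 higher genes. Against DSS cluster 4, 303 and 380 became 659 and 896 after thinning, 166 and 156 with a pseudocount of 10 CPM, and 566 and 1138 with no minimum level. The cause was not tested. The r with DSS cluster 4 was 0.885 without centring. With rank correlation, other gene minimums of 10 or 200 CPM, thinning, leukocyte clusters left out or high doublet scores left out it lay between 0.696 and 0.767 and was the highest of the DSS clusters. Of 420 values of the 50 highest or lowest ratios, 103 moved and 0 changed sign. Reg3b and Spink4 were counted both against the other normal cells and against DSS cluster 4. The log2 ratio of Pyy against the other normal cells went from -7.45 to -0.87 without cells of high doublet score, that of Mcpt1 from -6.66 to -0.64 after thinning, and that of Spink4 against DSS cluster 4 from -3.27 to -0.95 against DSS cluster 2. Several other genes given here changed sign between DSS clusters 4 and 10. Examples were Slc26a3 (3.18 and -0.48), Slc12a2 (-2.08 and 0.79), Reg4 (-2.94 and 0.99), Krt20 (0.98 and -1.65), Cd44 (-2.37 and 0.61) and Mki67 (-0.54 and 1.20). With DSS cluster 10 or DSS stem cluster 2 as the counterpart, 388 and 400 genes were at least 2-fold higher and 366 and 480 lower, and both stayed within 1.5 times the counts for DSS cluster 4. The share of cluster 14 among normal cells was 7.85% among cells of at least 1500 genes and 6.51% without the cells of high doublet score. The alternative with DSS cluster 10 and those that leave out sex-linked genes or cells with stem cell UMIs were chosen after seeing the data.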

Other observations

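Some normal cells sat in clusters made mostly of DSS cells. Of 11 normal cells in cluster 4, 5 were nearest to normal cluster 2, 3 to cluster 13 and 3 to cluster 14.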
